A study of Mus musculus with 6 samples.

Results

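The 10 mature miRNAs described here come from 5 hairpins that lie together in an intron of Clcn5 on the mouse X chromosome, miR-532, miR-188, miR-362, miR-501 and miR-500, out of 778 mature miRNAs in the table. They were chosen by hairpin name, either arm, around miR-532-5p, which had itself been chosen because it was lower after TGF-β1 in these same libraries, and the question was whether its neighbours were lower with it. Values of the members between the groups are therefore a description. Where fits over all miRNAs are used, the calls among the members are only counted beside the share of all miRNAs called, and no p-value is given for a member. A sixth hairpin searched by name, miR-660, gave no row. Small RNA was sequenced from cultured mouse primary mesangial cells, which hold the capillaries of the glomerulus together and can contract. Both groups shared the same medium, with glucose at 25.5 mM and 20% serum, and passages 3 to 6. The Control group had 3 libraries, and the TGF-β1 group had 3 libraries from cells that received this profibrotic cytokine at 10 ng/ml for 72 h. The sources say that each group was collected in triplicate and do not say whether these were separate cultures, so the spread between libraries may be technical. As the table holds bulk samples, fewer cells of a type and less RNA per cell cannot be told apart.

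A miRNA hairpin is cut from a longer transcript by Drosha and then by Dicer, which leaves a duplex of a 5p and a 3p arm. Usually 1 arm is kept in an Argonaute protein, where bases 2 to 8, the seed, pair with target mRNAs, while the other is degraded. Hairpins in an intron can be cut from the transcript of their host gene, so arms of neighbouring hairpins may share a precursor and still differ in abundance. Clcn5 encodes ClC-5, an endosomal chloride/proton exchanger best known from the proximal tubule, where its loss causes Dent disease.

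On the NCBIM37 genome (GENCODE vM1), all 5 hairpins lay on the minus strand, the strand of Clcn5 (chrX:6730936-6896484). In the order of transcription they were Mir532 at chrX:6825528-6825623, Mir188 at chrX:6825115-6825182, Mir362 at chrX:6819108-6819172, Mir501 at chrX:6818369-6818477 and Mir500 at chrX:6814809-6814900. They spanned 10815 bases inside 1 intron of 103648 bases, intron 3 of 14 in the transcript with most exons. Of the 5 annotated Clcn5 transcripts 3 spanned the hairpins, and no exon of these 3 overlapped a hairpin. Mir532 and Mir188 were 345 bases apart and Mir362 and Mir501 were 630 bases apart, with 5942 bases between these pairs and 3468 bases from Mir501 to Mir500.

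Mature sequences of 9 members were found in RefSeq (GRCm38.p6), all but that of miR-532-5p. They are shown because they group the members into sets that could repress the same mRNAs, and because the likeness of the arms bears on how reads could be assigned. Capitals mark the seed, bases 2 to 8 from the 5′ end. The 3p arms of miR-500 and miR-501 had the same seed, and that of miR-362 differed from it.
miR-501-3p: aAUGCACCcgggcaaggauuug
miR-500-3p: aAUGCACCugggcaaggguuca
miR-362-3p: aACACACCuguucaaggauuca
The 5p arms of miR-362 and miR-500 shared a seed, and that of miR-501 ended in another base.
miR-362-5p: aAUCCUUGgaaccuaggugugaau
miR-500-5p: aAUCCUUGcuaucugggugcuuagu
miR-501-5p: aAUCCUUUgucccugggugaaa
The remaining arms with a sequence each had a seed of their own, although those of miR-532-3p and miR-188-3p were the same letters read 1 base apart.
miR-532-3p: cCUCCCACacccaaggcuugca
miR-188-3p: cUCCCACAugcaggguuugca
miR-188-5p: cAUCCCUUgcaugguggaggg

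Between miR-500-3p and miR-501-3p, 4 of 22 positions differed, the first at position 9 from the 5′ end. Of the positions compared, 17 of 22 were identical in miR-500-3p and miR-362-3p, and 16 of 24 in miR-500-5p and miR-362-5p. How a read that matches several miRNAs was counted is not given in the sources used here, so the split of reads between miR-500-3p and miR-501-3p is uncertain. Some rows outside the cluster, such as miR-297a-3p, miR-297b-3p and miR-297c-3p, held equal values, so a read may have been counted in several rows. Whether this holds for the cluster was not tested. The hairpins of this likeness are shown with both arms in capitals.
Mir362: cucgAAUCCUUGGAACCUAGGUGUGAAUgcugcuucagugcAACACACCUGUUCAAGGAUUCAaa
Mir501: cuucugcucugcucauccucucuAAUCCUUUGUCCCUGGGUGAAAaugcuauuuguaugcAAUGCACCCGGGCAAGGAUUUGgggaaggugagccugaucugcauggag
Mir500: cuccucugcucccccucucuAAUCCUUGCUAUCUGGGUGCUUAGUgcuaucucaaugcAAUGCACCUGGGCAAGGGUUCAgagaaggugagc

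The values are reads per 1000000 reads of the library total (RPM), and the library totals, recovered from the step between the deposited values, ran from 16478281 to 20169254 reads. At these depths 1 read was worth 0.0496 to 0.0607 RPM, and a count of 0 allows up to 3 reads, 0.149 to 0.182 RPM, a limit that covers counting error only. The listed miRNAs held 79.5% to 79.8% of all reads of a Control library but 71.6% to 73.1% of those of a treated one, so the scaling differs between the groups and ratios within a library are given beside the levels. As a check of the cells by miRNAs alone, 4 contractile or mesenchymal miRNAs summed to 2575 to 2946 RPM in Control and 2603 to 3066 in TGF-β1, most of it miR-143-3p. Within that sum miR-145-5p was at 97.3 to 148.3 RPM in Control and 230.8 to 246.6 in TGF-β1, and miR-199a-3p was at 557.5 to 666.3 and 479.6 to 487.0 RPM, with no overlap in either. Endothelial and blood cell miRNAs were at or near 0, with sums of at most 0.298 RPM. The 3 striated muscle miRNAs summed to 3285 to 3646 RPM over all libraries, nearly all of it miR-206-3p, which is known from skeletal muscle, while miR-133a-3p stayed at or below 0.182 RPM. The 5 epithelial miRNAs, of the miR-200 family, summed to 22.2 to 25.4 RPM in Control and 1.67 to 2.53 in TGF-β1. Hepatocyte miR-122-5p was at 24.2 to 27.3 RPM in Control and 13.1 to 13.9 in TGF-β1. The part of such RNA in the values below was not tested.

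MiR-532-5p was the most abundant arm of the cluster in every library. In the table it is mmu-miR-532-5p, and it had 96.8, 111.4 and 113.9 RPM in Control replicates 1 to 3 and 52.5, 48.3 and 58.4 RPM in TGF-β1 replicates 1 to 3. The highest treated library lay well under the lowest Control library. The mean was 107.4 ± 9.26 RPM in Control and 53.1 ± 5.08 RPM after treatment (SD, n = 3 each), or 49.4% of Control, a change of -1.004 ± 0.12 (SE) on the log2(value + 1) scale. Its mean level was place 80 of the 778 rows in Control and place 95 in TGF-β1.

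The other arm of the same hairpin did not separate the groups. The level of mmu-miR-532-3p was 40.4, 45.1 and 24.6 RPM in Control and 27.9, 27.7 and 40.7 RPM in TGF-β1. The lowest of the 6 values was Control replicate 3 and TGF-β1 replicate 3 was second to Control replicate 2, so the groups overlapped widely. The means were 36.7 ± 10.8 and 32.1 ± 7.45 RPM (SD, n = 3 each), and the log2(value + 1) values differed by -0.16 ± 0.25 (SE). This value was above 0 under the TMM, median-of-ratios and upper-quartile scalings (0.039 to 0.14), and was -0.42 without Control replicate 3.

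Both arms of miR-362 were lower in all treated libraries. The level of mmu-miR-362-3p was 16.8, 20.9 and 19.3 RPM in Control and 10.2, 8.54 and 12.3 RPM in TGF-β1. Its mean was 19.0 ± 2.04 RPM in Control and 10.3 ± 1.88 RPM after treatment (SD, n = 3 each), and the log2(value + 1) values differed by -0.82 ± 0.16 (SE). The level of mmu-miR-362-5p was 7.65, 6.65 and 7.60 RPM in Control and 4.61, 5.14 and 5.38 RPM in TGF-β1, with a log2 change of -0.46 ± 0.13 (SE). Over libraries this arm varied less than the other 6 tested members, with a coefficient of variation of 7.68% in Control and 7.83% in TGF-β1.

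The main arm of miR-501 stood closer to its Control level than the other members with separated groups. The level of mmu-miR-501-3p was 18.2, 22.8 and 20.9 RPM in Control and 16.3, 12.3 and 17.7 RPM in TGF-β1. Control replicate 1 and TGF-β1 replicate 3, the closest pair, differed by less than the spread within either group. The mean was 20.6 ± 2.33 RPM in Control and 15.4 ± 2.82 RPM after treatment (SD, n = 3 each), and the log2(value + 1) values differed by -0.41 ± 0.17 (SE), or by -0.26 without TGF-β1 replicate 2. MiR-501-5p was rare, with 12, 13 and 10 reads in Control and 9, 5 and 4 reads in TGF-β1, and did not pass the filter on low values.

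The level of mmu-miR-500-3p, which shares the seed of miR-501-3p, was 6.49, 5.99 and 3.69 RPM in Control and 3.22, 1.84 and 2.98 RPM in TGF-β1. Control replicate 3 stood far below the other Control libraries and only just above the highest treated library. Its mean was 5.39 ± 1.497 RPM in Control and 2.68 ± 0.738 RPM after treatment (SD, n = 3 each), or 49.8% of Control. The log2(value + 1) values differed by -0.79 ± 0.23 (SE). The RPM of both miRNAs with this seed summed to 26.03 ± 2.43 in Control and 18.1 ± 3.51 in TGF-β1 (SD, n = 3 each), a sum that does not depend on how reads were split between them if each read was counted once. MiR-500-5p had 2 reads in each Control library and 3, 0 and 3 reads in TGF-β1, all at or under the limit that a count of 0 allows.

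The arm mmu-miR-188-5p was lowest relative to Control but rested on few reads. It had 44, 24 and 14 reads in Control, or 2.67, 1.44 and 0.794 RPM, and 10, 7 and 2 reads in TGF-β1, or 0.496, 0.391 and 0.117 RPM. Control values varied over a wide range, and the treated libraries all lay below them. The mean went from 1.63 ± 0.953 to 0.335 ± 0.196 RPM (SD, n = 3 each), 20.5% of Control. On the log2(value + 1) scale, which understates changes near 1 RPM, this was -0.93 ± 0.26 (SE), and with a pseudocount of 0.1 it was -1.97. MiR-188-3p had at most 4 reads in any library.

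**Figure D1:**
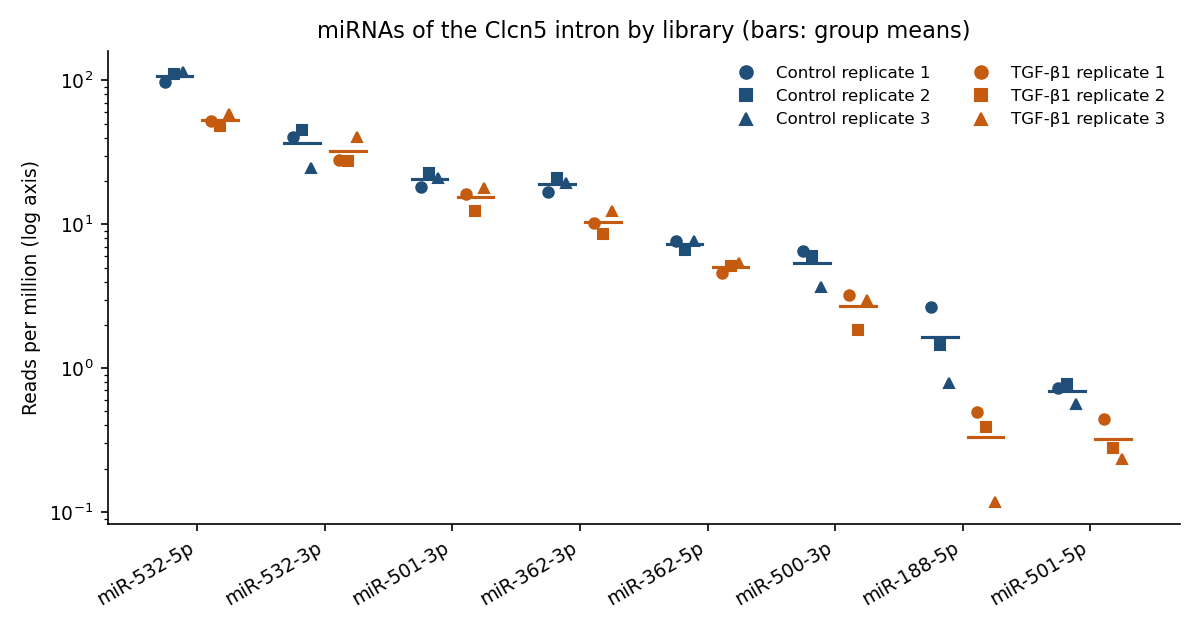
RPM (log axis) of the 8 arms above the lowest levels, by arm; each point is 1 library and each bar a group mean (n = 3). For miR-532-3p the Control and TGF-β1 points overlap, while for the other 7 arms all TGF-β1 points lie below all Control points.

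Of the 10 arms, 7 had enough reads to be tested with all miRNAs (limma, Benjamini-Hochberg adjustment over 408 miRNAs), and miR-501-5p, miR-188-3p and miR-500-5p did not. Of these 7, miR-532-5p, miR-362-3p, miR-362-5p, miR-500-3p and miR-188-5p, 5 in all, were lower at an adjusted p under 0.05, where 31.9% of all miRNAs tested were. By limma 0 of the 7 were higher, and 17.4% of all tested were. MiR-501-3p and miR-532-3p were not called. The call of miR-532-5p was fixed by the choice of the cluster. MiR-188-5p passed the filter on low values through its Control libraries alone. With a filter at a mean of 50 reads it was not tested, and 4 members were lower, where 110 of all 281 tested were. On recovered reads, edgeR with TMM gave 4 members lower, against 24.8% of all tested, and 0 higher, against 20.8%. DESeq2 gave 3 lower, against 17.6%, and 0 higher, against 18.4%. Only miR-532-5p also had a log2 change below -1, against 7.84% of all tested, and 0 had one above 1, against 4.41%. The 1 added before the log shrinks changes at low levels. By means, miR-500-3p was at 49.8% of Control and miR-188-5p at 20.5%, beside 49.4% for miR-532-5p. All treated libraries lay below all Control libraries for 6 of the 7, against 36% of all tested, and above them for 0 of the 7, against 20.8%. As the cluster was picked on this comparison, these counts describe it and support nothing further. The median log2 change of the 7 was -0.79, beside -0.17 for all 408.

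These values moved with the scaling. Under TMM, median-of-ratios, upper-quartile and sum-of-rows scaling, the change of miR-532-5p was between -0.87 and -0.69, so that it no longer passed a log2 change of -1. MiR-362-3p was between -0.70 and -0.53, and miR-501-3p between -0.28 and -0.11. MiR-362-5p was between -0.34 and -0.19 and was not called under any of these 4 scalings. The median of all tested miRNAs was between -0.076 and 0.067 under the same scalings. The lean of the calls over all miRNAs moved too, from 130 lower and 71 higher with library totals to 94 and 98 with TMM, 92 and 93 with the median of ratios, 73 and 95 with the upper quartile and 104 and 84 with the sum of rows. Relative to that median, each of miR-532-5p, miR-501-3p, miR-362-3p, miR-362-5p, miR-500-3p and miR-188-5p stayed lower, and miR-532-3p stayed near it. The count of 5 lower members became 3 without Control replicate 1, without Control replicate 2 or without TGF-β1 replicate 2. In these fits 97, 102 and 99 of all 408 tested were lower, in that order. MiR-500-3p was not called in any of these 3 cases, miR-362-5p without Control replicate 1 or 3 or TGF-β1 replicate 1 or 2, and miR-188-5p without Control replicate 2 or TGF-β1 replicate 3.

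**Figure D2:**
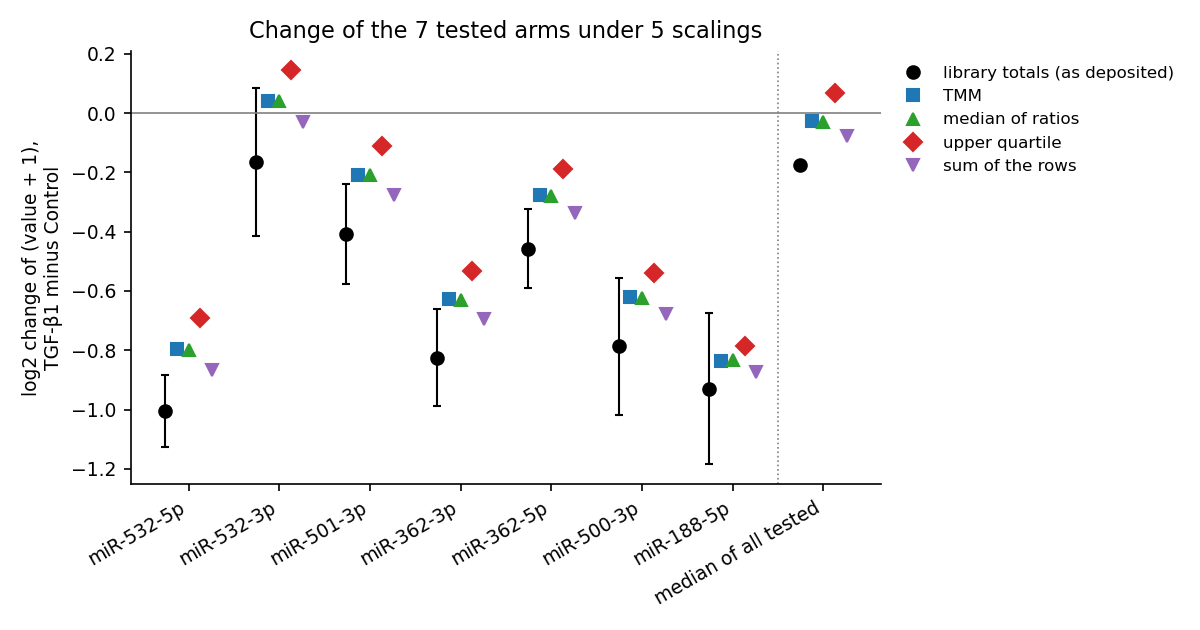
Change on the log2(value + 1) scale, TGF-β1 minus Control, for the 7 tested arms and for the median of all 408 miRNAs tested, under 5 scalings of the libraries; black points carry the SE. MiR-532-5p ranges from -1.004 to -0.69, and miR-532-3p crosses 0.

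In Control the order of the levels was miR-532-5p, miR-532-3p, miR-501-3p, miR-362-3p, miR-362-5p, miR-500-3p, miR-188-5p, miR-501-5p, miR-188-3p and miR-500-5p. Reads of mature miRNAs of like length can be set side by side without scaling by length, although ligation favours some ends over others. MiR-501-3p and miR-362-3p overlapped over the Control libraries, as did miR-188-3p and miR-500-5p, and the other neighbours in the order were apart. The mean of miR-532-5p was 2.93 times that of miR-532-3p in Control and 1.65 times in TGF-β1. The first 8 places were in the same order in TGF-β1, where miR-188-5p and miR-501-5p also overlapped.

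Over all 5 hairpins, levels did not follow position along the intron. The neighbours Mir532 and Mir188, the first to be transcribed, held the highest and the lowest hairpin sums of the cluster. Both arms of miR-532 summed to 144.1 ± 10.8 RPM in Control (SD, n = 3), and both arms of miR-188, 345 bases away, to 1.79 ± 1.01 RPM. The sums for miR-362, miR-501 and miR-500 were 26.3 ± 1.62, 21.3 ± 2.34 and 5.51 ± 1.501 RPM. In TGF-β1 these 5 sums were 59.1%, 24.5%, 58.5%, 73.8% and 50.7% of Control, in that order, and each was lower in all treated libraries. With miR-188 set aside, the Control sums of the other hairpins fell in the order of transcription. In TGF-β1 the mean sum of miR-501, at 15.7 RPM, was slightly above that of miR-362, at 15.4 RPM, and the 2 overlapped over libraries.

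**Figure D3:**
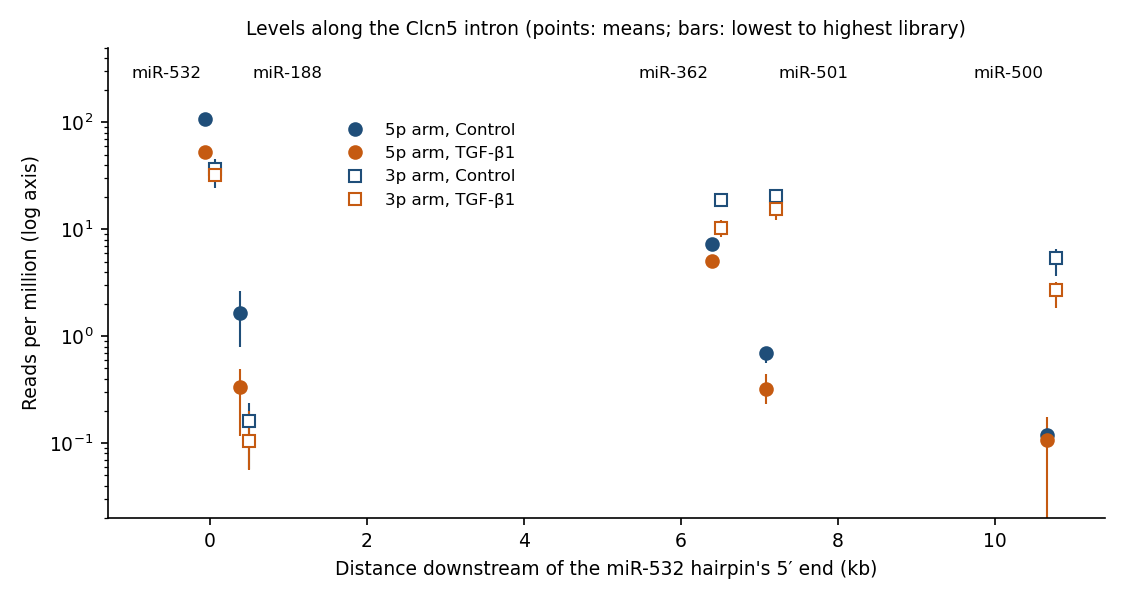
RPM (log axis) of the 10 arms against the distance of their hairpin downstream of the 5′ end of the miR-532 hairpin (kb), with the 5p and 3p arms of a hairpin set slightly apart; points are group means (n = 3), bars run from the lowest to the highest library, and the bar that reaches the bottom of the axis holds a library with 0 reads. The miR-188 arms, next to miR-532, lie far below it.

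Arms were compared within hairpins, and the percent of reads from 1 arm is free of library scaling. The 5p arm held 70.5%, 71.2% and 82.3% of miR-532 reads in Control and 65.3%, 63.5% and 58.9% in TGF-β1. All treated libraries lay below all Control libraries, and Control replicate 3 stood above the rest. With 1 RPM added to each arm, the log2 ratio of the 5p to the 3p arm was 1.56 ± 0.523 in Control and 0.73 ± 0.195 in TGF-β1 (SD, n = 3 each). The difference of -0.84 became -0.54 without Control replicate 3.

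The other hairpins had other main arms. MiR-362 gave 27.9% ± 3.56 of its reads from the 5p arm in Control and 33.0% ± 3.92 in TGF-β1 (SD, n = 3 each), with overlapping groups. MiR-501 and miR-500 came almost wholly from the 3p arm, with 3.26% ± 0.601 and 2.26% ± 0.631 from the 5p arm in Control (SD, n = 3 each). MiR-188 came mainly from the 5p arm, 90.9% ± 4.48 in Control and 75.2% ± 10.9 in TGF-β1 (SD, n = 3 each), on 82 and 19 reads of that arm over each group. By this percent the treated libraries of these 3 hairpins overlapped with Control.

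**Figure D4:**
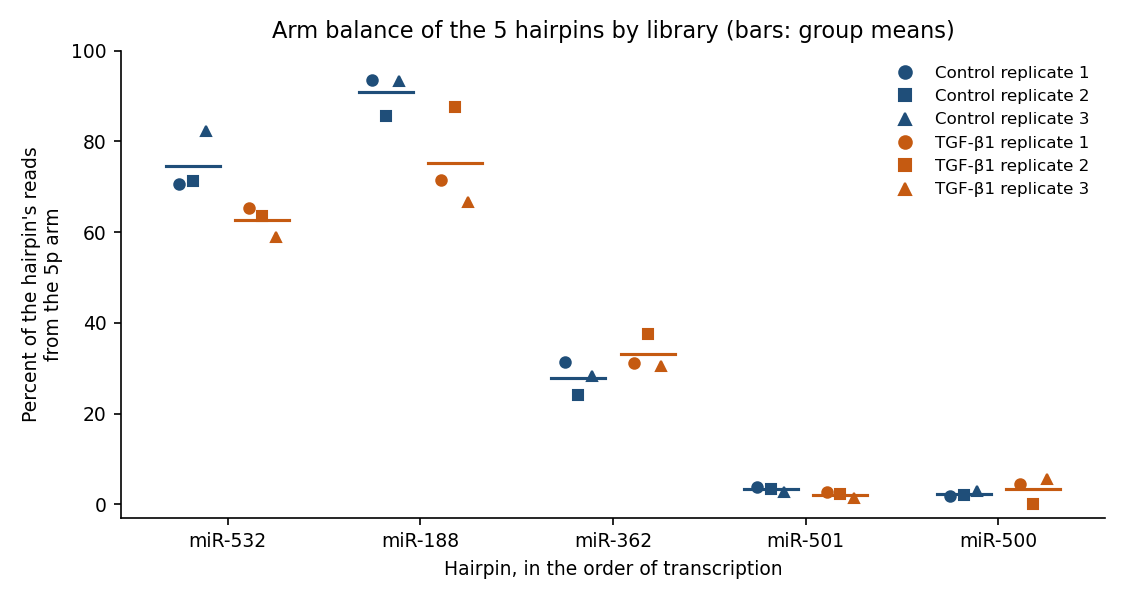
Percent of the reads of each hairpin that came from its 5p arm, for the 5 hairpins in the order of transcription; points are libraries and bars group means (n = 3). The miR-532 points of TGF-β1, 58.9% to 65.3%, lie below those of Control, 70.5% to 82.3%, and the other hairpins overlap.

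The 10 arms summed to 190.1, 215.4 and 191.5 RPM in Control and to 116.0, 104.6 and 138.1 RPM in TGF-β1. The treated sum was 60.1% of Control, with no overlap. Without miR-532-5p the sums were 91.6 ± 13.3 and 66.5 ± 12.0 RPM (SD, n = 3 each), and TGF-β1 replicate 3, at 79.7 RPM, overlapped with Control replicate 3, at 77.6.

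The make-up of the cluster's reads also differed. MiR-532-5p held 50.9%, 51.7% and 59.5% of the summed RPM in Control and 45.3%, 46.2% and 42.3% in TGF-β1. MiR-532-3p went the other way, from 18.3% ± 4.77 to 26.7% ± 2.72, and so did miR-501-3p, from 10.4% ± 0.694 to 12.9% ± 1.14 (SD, n = 3 each), with no overlap in either. As a share of the summed RPM without miR-532-5p, miR-501-3p differed by only 0.43 percentage points. Of all 10 arms, miR-362-3p held 9.53% ± 0.628 and 8.62% ± 0.397 (SD, n = 3 each), with overlap. This difference of -0.91 points was -5.42 points as a share of the summed RPM without miR-532-5p. Set against 100 reads of miR-532-5p, miR-362-3p had 17.4, 18.7 and 16.9 reads in Control and 19.4, 17.7 and 21.0 reads in TGF-β1, and the groups overlapped. By the same measure miR-501-3p had 19.2 ± 1.14 reads in Control and 28.9 ± 3.04 in TGF-β1 (SD, n = 3 each), and the groups were apart. They were also apart for miR-532-3p, at 34.6 ± 11.3 and 60.1 ± 8.60 reads (SD, n = 3 each). The same held for miR-362-5p, at 6.85 ± 0.976 and 9.55 ± 0.969 reads (SD, n = 3 each). For miR-500-3p and miR-188-5p the groups overlapped.

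**Figure D5:**
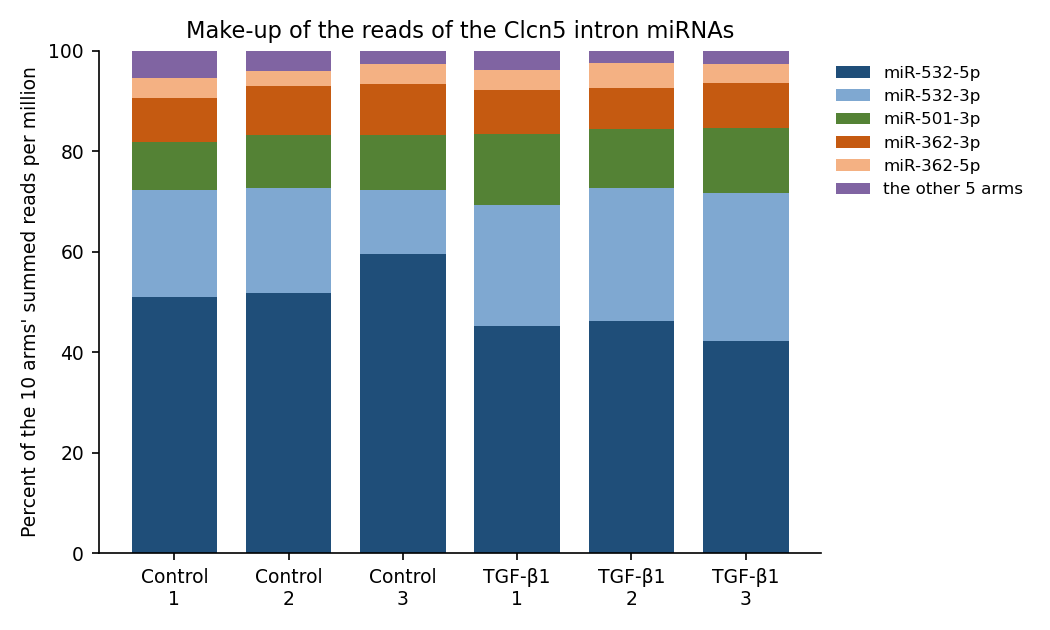
Percent of the summed RPM of the 10 arms held by each of the 5 most abundant arms and by the other 5 together, 1 bar per library. MiR-532-5p takes 50.9% to 59.5% in Control and 42.3% to 46.2% in TGF-β1.

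Likeness to miR-532-5p was measured as the root mean square distance, over the 6 libraries, between log2(value + 1) profiles set to 0 at the Control mean. Of the cluster, miR-362-3p was closest at 0.146, place 7 of the 407 other miRNAs tested, and miR-500-3p took place 55. MiR-362-5p, miR-188-5p and miR-501-3p took places 87, 88 and 95. MiR-532-3p, from the same hairpin, was farthest at 0.676, place 211. Outside the cluster the closest were miR-30a-3p at 0.086, miR-181d-5p at 0.092 and miR-1247-3p at 0.110. MiR-30a-3p, an arm of a miR-30 hairpin, had 358.7 ± 20.7 RPM in Control and 191.8 ± 24.1 in TGF-β1 (SD, n = 3 each). MiR-181d-5p, of the miR-181 family, had 846.5 ± 4.23 and 429.9 ± 22.3 RPM (SD, n = 3 each). MiR-1247-3p had 12, 20 and 16 reads in Control and 0 reads in each treated library, which allows up to 0.176 RPM, beside a Control mean of 0.945 RPM. At such levels the distance is set largely by the 1 added before the log, so it does not show that this miRNA and miR-532-5p changed by the same ratio. The same limit holds for the distance of miR-188-5p. It holds in part for miR-500-3p, whose mean was 49.8% of Control, beside 49.4% for miR-532-5p.

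Among the other listed miRNAs with a RefSeq mature sequence, 1 shared a seed with a cluster member. This was miR-329-3p of the imprinted Dlk1-Dio3 region on chromosome 12, whose seed equals that of miR-362-3p.
miR-329-3p: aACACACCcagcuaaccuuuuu
It had 2.67, 1.86 and 1.48 RPM in Control and 4.12, 4.02 and 6.85 RPM in TGF-β1, so all treated libraries lay above Control while those of miR-362-3p lay below. MiR-329-3p took 9.66% ± 3.54 of the reads with this seed in Control and 32.2% ± 3.53 in TGF-β1 (SD, n = 3 each). The RPM of both together went from 21.0 ± 1.63 to 15.3 ± 3.40 (SD, n = 3 each), and TGF-β1 replicate 3, at 19.1, came close to the lowest Control library, at 19.5.

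Other miRNAs of chromosome X and of 2 other host genes are given for comparison, with no test of a difference. Of 48 other listed chromosome X miRNAs 29 were tested, of which 14 were lower and 2 higher at a limma adjusted p under 0.05, with a median log2 change of -0.42. They ranged from -2.32 for miR-503-5p to 1.22 for miR-224-5p. In the intron of Mcm7, a replication licensing gene, 2 of 5 tested arms of miR-106b, miR-93 and miR-25 were lower and 1 was higher. There the arms of 1 hairpin also differed, as miR-25-3p was at -0.86 and miR-25-5p at 0.29. In Gabre, which encodes a GABA receptor subunit and also lies on chromosome X, both tested arms were higher, miR-452-5p at 0.58 and miR-224-5p at 1.22.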

How the data were processed

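The authors trimmed adaptors, removed contaminants, low-quality reads and reads under 18 nt, and compared the rest with miRBase version 17 by Bowtie. The unit the authors named TPM is RPM here, with no scaling by length, and it was deposited for 778 mature miRNAs. Whole reads were recovered from the deposited values, as 100% of them were multiples of 1 read within 0.002 reads. The members and lists were chosen with earlier results of these data known, and groups followed the labelled treatment.

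Log2(value + 1) was fitted with limma 3.58.1 (R 4.3.3, trended prior, a term for group alone). Rows were those that edgeR 4.0.16 retained by filterByExpr at a minimum count of 10, 408 in all. Calls needed a Benjamini-Hochberg adjusted p under 0.05, also with an absolute log2 change above 1. DESeq2 1.42.0 was an alternative. The fits were tested on simulated data. The lowest chi-square per degree of freedom between libraries of a group was 43.2, far above sampling noise. No member shared an identical row. Named were all arms of the hairpins, seed sharers, the 3 closest profiles to miR-532-5p and the extremes of other lists. Chromosome and seed came from RefSeq for 581 of the 778 names. Hairpin positions came from GENCODE vM1 (NCBIM37), the build used for the RNA reads of the study.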

Additional observations from a re-analysis of the deposited data

How the results depend on the processing

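Leaving out each library gave 3 to 4 lower members in place of 5, 0 to 1 with a log2 change below -1, 0 to 0 higher, a median change of -0.82 to -0.61 and a log2 ratio of the summed level of -0.85 to -0.65. Over all 408 tested, these fits gave 97 to 135 lower, 26 to 41 below -1 and 59 to 66 higher. DESeq2 gave 3 lower members, against 17.6% of all tested. In place of 1 member below -1 there were 0 under TMM, median-of-ratios, upper-quartile and sum-of-rows scaling and with a pseudocount of 10. There were 2 with a pseudocount of 0.1 and 3 by edgeR on library totals. Over all 408, the 32 below -1 became 15 to 24 in the former and 54 in each of the latter. The median change of -0.79 became -0.53 with upper-quartile scaling, -0.27 with a pseudocount of 10 and -0.43 with no filter, which adds arms of few reads. The log2 ratio of the summed level, -0.73, became -0.53 under both TMM and the median of ratios, and -0.43 under upper-quartile scaling. MiR-532-3p, at -0.16, turned to 0.042 by TMM, 0.039 by the median of ratios, 0.14 by the upper quartile, 0.035 by DESeq2 and 0.0031 without Control replicate 2. MiR-532-5p was at -0.98, -0.96, -0.999 and -0.94 without Control replicate 2, Control replicate 3, TGF-β1 replicate 1 and TGF-β1 replicate 2. Of the members, 0 were below -1 in the first and last of these fits, as miR-188-5p passed in the other 2 (-1.18 and -1.02).

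The arm ratio difference of miR-501, 0.048, turned to -0.51 with a pseudocount of 0.1 and ranged from -0.077 to 0.20 over libraries left out, below 0 without Control replicate 3 (-0.017) or TGF-β1 replicate 2, and that of miR-188, -0.86, was -1.63 with a pseudocount of 0.1 and -1.04 to -0.60 with libraries left out. Those of miR-532, miR-362 and miR-500 ranged from -1.003 to -0.54, 0.24 to 0.48 and 0.64 to 0.98. MiR-500-5p had 0 to 3 reads in a library, so with 1 RPM added the miR-500 ratio mostly follows miR-500-3p. By percent the miR-500 groups overlapped. Share differences in percentage points ranged from -11.0 to -6.75 for miR-532-5p, 5.60 to 9.82 for miR-532-3p, 1.93 to 3.07 for miR-501-3p, -1.25 to -0.64 for miR-362-3p and 0.24 to 0.75 for miR-362-5p. As shares of the sum without miR-532-5p they were 0.43 for miR-501-3p, -5.42 for miR-362-3p and -0.42 for miR-362-5p, the last turned from 0.57. The cause of these changes was not tested.

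Libraries were not paired by number: deviations from the group mean correlated at -0.084, -0.21 and -0.34 for equal numbers, and 0 of 6 libraries correlated best with their own number. With the replicate block 4 members were lower, as miR-362-5p was no longer called, and 1 was below -1. Of all 408, 115 were lower with it and 32 below -1. Over all alternatives for single members, 110 results kept direction and call, 17 lost the call and 5 turned, all of miR-532-3p. Arms of under about 10 reads in a library, miR-188-3p, miR-500-5p and partly miR-188-5p and miR-501-5p, are limited by counting.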
